A study of Tabanus nipponicus with 3 samples.

Results

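Yolk, storage and lipid carrier proteins were followed through 9 unigenes whose best protein hit is named vitellogenin, hexamerin or apolipophorins, out of 8039 unigenes in the deposited table. Each unigene is an RNA sequence put together from the reads alone, with no genome at hand. The 9 were taken by identifier and hold 6 vitellogenin names, 2 hexamerin names and 1 apolipophorins name. The only other unigene with one of these words is a putative vitellogenin receptor, which is no member. The RNA was from midgut of adult female horse flies, Tabanus nipponicus, 3 in number, caught in the wild, labelled as genotype WT and giving 1 library each. They form 1 group with no treatment contrast, called fly 1, fly 2 and fly 3 here. The sources used here do not give their age, feeding state or egg stage. The values are FPKM, a read number per length of transcript and per sequencing depth, and levels of different unigenes are compared on that scale.

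Vitellogenins are the precursors of egg yolk. In many insects the large vitellogenins are made in the fat body, released into the hemolymph and taken up by the growing egg, and they belong to the large lipid transfer proteins. The name vitellogenin-1 is also used for the yolk proteins of Drosophila melanogaster, which are smaller and related to lipases, so 1 name can stand for unlike proteins. Apolipophorins are the protein part of lipophorin, the particle that carries lipids through the hemolymph between gut, fat body and other organs, and are likewise large lipid transfer proteins. Hexamerins are storage proteins of the hemocyanin superfamily, best known from the fat body and hemolymph of larvae. The midgut is not the main known source of any of them.

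The vitellogenin names fell into 2 kinds by the length of their best hit, a division made after the values were seen. Vitellogenin-A1-like (TRINITY_DN135_c1_g1_i9, 5888 bases) aligned to residues 1 to 2029 of a protein of 2033 residues from the long-legged fly Condylostylus longicornis, with 30.7% identity. Vitellogenin-5 (TRINITY_DN37460_c0_g1_i5, 4564 bases) aligned to residues 1 to 1433 of 1436 of a black soldier fly protein, Hermetia illucens, with 63.1% identity. Both large hits were covered almost from end to end.

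The other 4 vitellogenin names had hits of 395 to 453 residues. Vitellogenin-1-like (TRINITY_DN4151_c0_g1_i6, 1345 bases) covered 91.6% of its hit from the hoverfly Episyrphus balteatus at 61.6% identity. Vitellogenin-1 (TRINITY_DN24674_c0_g1_i4, 1333 bases) covered 84.5% of a Pseudolycoriella hygida protein at 33.5%. A second vitellogenin-1-like unigene (TRINITY_DN32326_c0_g1_i1, 943 bases) covered 60.5% of a Musca vetustissima protein at 40.9%. Another (TRINITY_DN25007_c0_g1_i1, 1110 bases) covered 64.1% of a Bradysia coprophila protein at 38.3%. The lengths of these 4 hits are in the range of the small kind of yolk protein, and 3 of them had identities of only 33.5% to 40.9%.

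The apolipophorins unigene (TRINITY_DN9332_c0_g1_i15, 3238 bases) aligned to residues 2313 to 3308 of a Hermetia illucens precursor of 3323 residues, or 30.0% of it, with 36.3% identity. The aligned part is the carboxyl end of the precursor. The longer hexamerin-1.1-like unigene (TRINITY_DN9776_c0_g1_i7, 2228 bases) covered 98.0% of a mosquito hexamerin from Armigeres subalbatus at 49.1% identity. The shorter one (TRINITY_DN16556_c0_g1_i1, 581 bases) aligned to residues 560 to 706 of 710 of a hexamerin from the mosquito Wyeomyia smithii, or 20.7% of it, at 66.7%. The best hits of the 9 members came from 8 species, 2 of them from Hermetia illucens, the source of the best hit for 4240 of all unigenes. In 8 of 9 members identity was below 65.5%, the median of all unigenes with a hit. No sequence of these unigenes was used here.

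**Figure D1:**
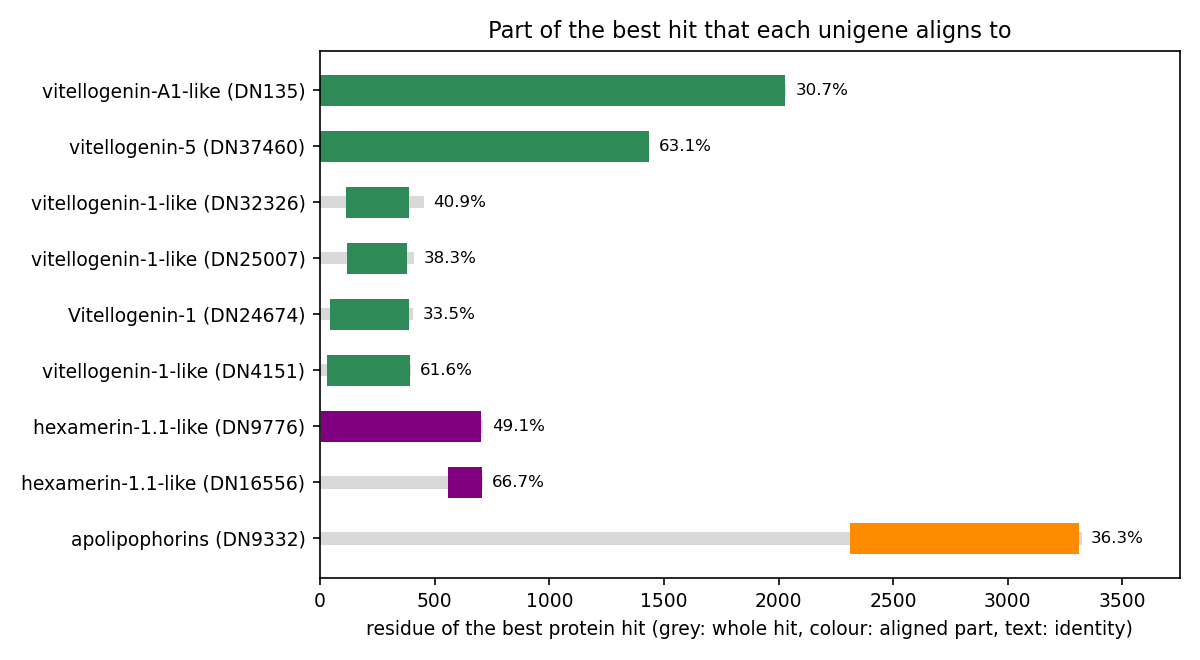
The part of its best protein hit that each of the 9 unigenes aligned to, in residues along the x axis, with the whole hit in grey, the aligned part in colour by name and percent identity as text. The apolipophorins unigene reached residues 2313 to 3308 of 3323 and the shorter hexamerin residues 560 to 706 of 710, whereas vitellogenin-A1-like and vitellogenin-5 covered their hits almost whole.

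The libraries had 29308867 to 33797869 recovered reads, the read numbers that the FPKM values imply, and the 9 members together had 344, 2380 and 8202 of them in flies 1, 2 and 3. Fly 3 was the highest of the 3 for 66.5% of all 8039 unigenes, so a high value in fly 3 is common in this table. With median-of-ratios scaling, which divides flies 1, 2 and 3 by 0.976, 0.838 and 1.27, that share was 41.1%. The median difference of fly 3 from the mean of the other flies, over all unigenes, was 0.43 in log2(FPKM + 1). Intervals given below are exact 95% intervals (Clopper-Pearson) on recovered fragments of 2 reads and cover counting error only. They and their ratios are without median-of-ratios scaling, which would lower the ratios of fly 3 to the other flies. No p-value is given for single unigenes, since there are no groups to compare.

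Most members were low for this tissue. The mean level was below the median of all unigenes, 8.69 FPKM, in 8 of 9, and apolipophorins was the exception. In fly 1, 2 of 9 members reached an FPKM of 1, against 86.4% of all unigenes. In fly 2, 4 of 9 did so, against 85.8%, and in fly 3, 7 of 9, against 95.0%. Vitellogenin-1-like (TRINITY_DN4151_c0_g1_i6) alone reached that level in all 3 flies, which 81.6% of unigenes did, and 8 members did so in at least 1 fly, against 96.7%. Of the 27 values, 6 rested on 6 reads or fewer.

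The summed level of the 9 was 6.75, 24.3 and 97.3 FPKM in flies 1, 2 and 3, or 0.00107%, 0.00383% and 0.0152% of all FPKM. Apolipophorins gave most of this sum in flies 2 and 3, and vitellogenin names gave most of it in fly 1. In 7 members fly 3 was highest, fly 2 between and fly 1 lowest, an order found in 21.6% of all unigenes. In the other 2 members fly 1 was highest and fly 3 lowest, an order found in 8.96%. With median-of-ratios scaling the numbers were 6 and 2, against 18.8% and 15.3% of all unigenes.

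**Figure D2:**
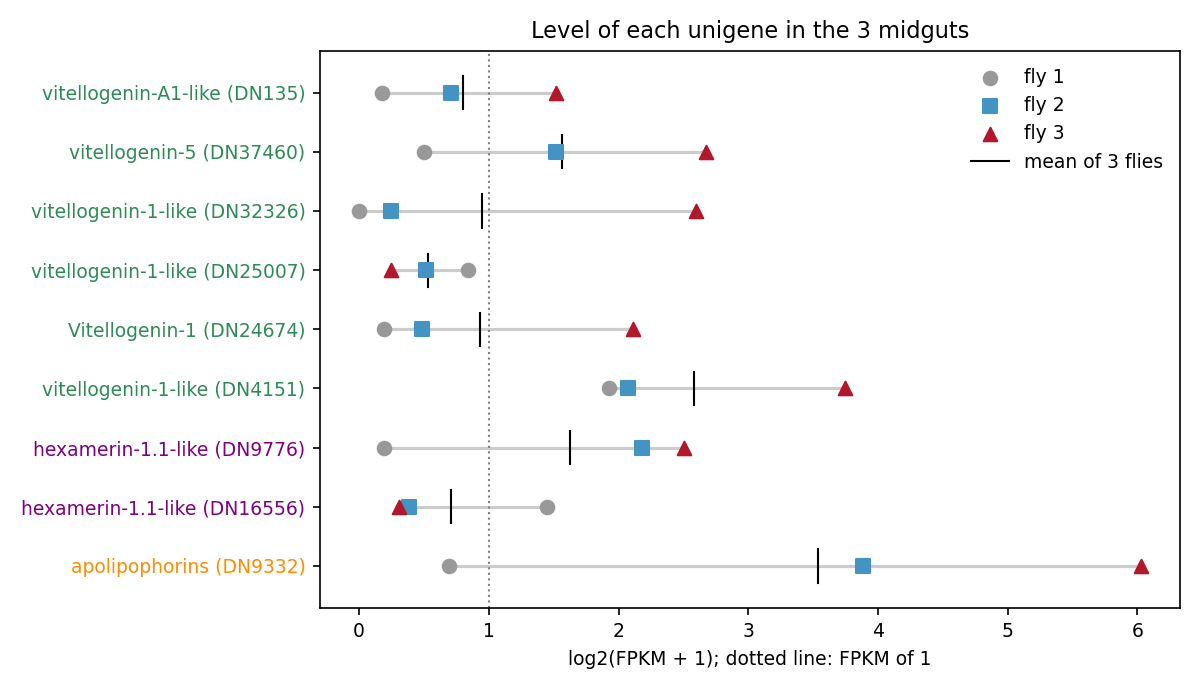
Level of each of the 9 unigenes as log2(FPKM + 1) on the x axis, with 1 point per fly and the mean of the 3 flies as a vertical bar. Fly 3 is the highest point in 7 rows and fly 1 in 2, and apolipophorins has the widest span, with values of 0.619, 13.8 and 64.1 FPKM in flies 1, 2 and 3.

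Apolipophorins (TRINITY_DN9332_c0_g1_i15) was at 0.619, 13.8 and 64.1 FPKM in flies 1, 2 and 3, a mean of 26.2 ± 33.5 (SD, n = 3). These values rested on 64, 1508 and 6084 reads. Every fly stood apart from the next, since fly 2 exceeded fly 1 22.3-fold (interval 15.6 to 32.8) and fly 3 exceeded fly 2 4.65-fold (4.29 to 5.05). Its place among all unigenes was percentile 9.11 in fly 1, 68.3 in fly 2 and 87.2 in fly 3. Variable is used here of a unigene averaging 5 FPKM or more whose extreme flies were 4-fold or more apart in FPKM + 1, which held for 9.42% of the 5256 unigenes at that mean. Of the 2 members at that mean, apolipophorins was variable, with a 40.2-fold difference that ranked 46 of 5256. Its SD was 2.68 in log2(FPKM + 1).

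The other member at that mean, vitellogenin-1-like (TRINITY_DN4151_c0_g1_i6), was not variable by this rule, at 3.54-fold in FPKM + 1. It was at 2.79, 3.21 and 12.4 FPKM in flies 1, 2 and 3, a mean of 6.15 ± 5.45 (SD, n = 3), from 120, 146 and 490 reads. Flies 1 and 2 did not differ beyond counting error, with a ratio of 1.15 (interval 0.805 to 1.64), and fly 3 stood above both, 3.87-fold over fly 2 (2.97 to 5.10). It was the most abundant of the yolk protein names in every fly.

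The 2 large vitellogenins shared their order of flies. Vitellogenin-5 (TRINITY_DN37460_c0_g1_i5) was at 0.412, 1.87 and 5.38 FPKM in flies 1, 2 and 3, from 60, 288 and 720 reads. Vitellogenin-A1-like (TRINITY_DN135_c1_g1_i9) was at 0.128, 0.633 and 1.87 FPKM, from 24, 126 and 322 reads. Fly 2 exceeded fly 1 4.53-fold (interval 3.04 to 6.96) for vitellogenin-5 and 4.96-fold (2.65 to 10.1) for vitellogenin-A1-like. Fly 3 exceeded fly 2 2.88-fold (2.37 to 3.52) and 2.95-fold (2.19 to 4.01) in the same order of names. The intervals of these unigenes overlapped for each pair of flies, while vitellogenin-5 was the higher of the pair in all 3 flies.

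Among the low unigenes with small hits, 2 were found mainly in fly 3. Vitellogenin-1-like (TRINITY_DN32326_c0_g1_i1) had 0 reads in fly 1, 6 in fly 2 and 140 in fly 3, or 0, 0.188 and 5.07 FPKM. A value of 0 in fly 1 allows up to 0.199 FPKM, the level of 6 reads in that library, and the interval of the ratio of fly 3 to fly 1 had a lower limit of 20.1. A 0 in 1 or more flies occurred in 2.09% of all unigenes. Vitellogenin-1 (TRINITY_DN24674_c0_g1_i4) was at 0.141, 0.400 and 3.33 FPKM, from 6, 18 and 130 reads. Flies 1 and 2 did not differ beyond counting error, at a ratio of 2.83 (interval 0.707 to 16.3), and fly 3 exceeded fly 2 8.33-fold (4.13 to 19.0).

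The last vitellogenin-1-like unigene (TRINITY_DN25007_c0_g1_i1) ran the other way, at 0.790, 0.426 and 0.184 FPKM in flies 1, 2 and 3. It rested on 28, 16 and 6 reads, and fly 1 exceeded fly 3 4.28-fold (interval 1.20 to 23.3). Fly 2 differed from neither of the other flies beyond counting error. With an SD of 0.30 in log2(FPKM + 1) it spread least of the 9, and at 0.467 ± 0.305 FPKM (SD, n = 3) it was the lowest in mean level.

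The 2 hexamerin-1.1-like unigenes differed in their order of flies. The longer (TRINITY_DN9776_c0_g1_i7) was at 0.141, 3.53 and 4.69 FPKM in flies 1, 2 and 3, from 10, 266 and 306 reads. Fly 2 exceeded fly 1 25.1-fold (interval 10.5 to 78.6), and fly 3 exceeded fly 2 1.33-fold (1.04 to 1.69). The order of flies 2 and 3 depended on the scaling, since with median-of-ratios scaling the values were 4.22 and 3.70. The shorter (TRINITY_DN16556_c0_g1_i1) was at 1.73, 0.306 and 0.235 FPKM, from 32, 6 and 4 reads, and fly 1 exceeded fly 3 7.34-fold (1.73 to 65.8). Flies 2 and 3 did not differ beyond counting error for it. The sum of both, 1.87, 3.84 and 4.92 FPKM, therefore hid opposite values of fly 1.

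**Figure D3:**
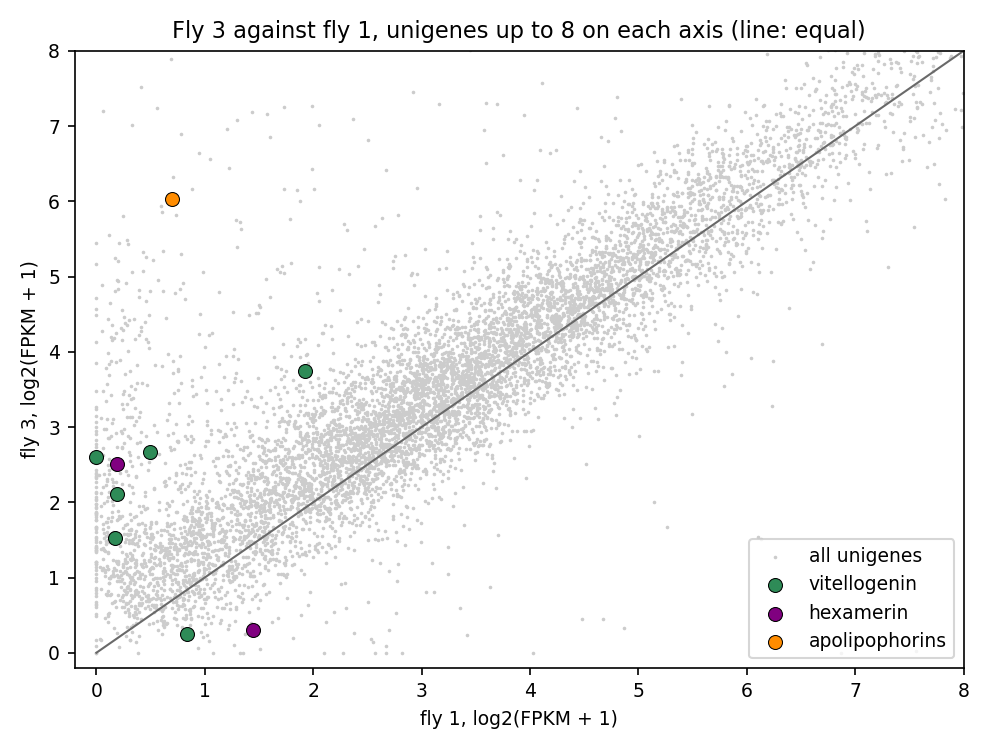
Fly 3 against fly 1 in log2(FPKM + 1), with grey points for all unigenes up to 8 on each axis, coloured points for the 9 members and a line where both flies are equal. Apolipophorins, at 64.1 FPKM in fly 3 and 0.619 in fly 1, lies far above the line with 6 other members, and 2 members lie below it.

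Without regard to the filter on mean level, 4 of the 9 members differed at least 4-fold in FPKM + 1, namely apolipophorins, the longer hexamerin, vitellogenin-5 and vitellogenin-1-like (TRINITY_DN32326_c0_g1_i1), against 9.33% of all unigenes. The median SD of the 9 was 1.04 in log2(FPKM + 1), and that of all unigenes was 0.38. The median difference of fly 3 from the mean of the other flies was 1.67 over the 9, against 0.43 over all unigenes. In the 27 comparisons of 2 flies within a member, the counting interval, without median-of-ratios scaling, held a ratio of 1 in 6.

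The order of the 3 names by summed level changed between flies. In fly 1 vitellogenin names stood at 4.27 FPKM, hexamerin names at 1.87 and apolipophorins at 0.619. In fly 2 the values were 6.73, 3.84 and 13.8, and in fly 3 they were 28.3, 4.92 and 64.1. Vitellogenin exceeded hexamerin names 2.29-fold, 1.75-fold and 5.74-fold in flies 1, 2 and 3, so the direction was the same in 3 of 3 flies. The log2 ratio averaged 1.51 ± 0.90 (SD, n = 3). This direction rested on the vitellogenin names with small hits, since the 2 large vitellogenins summed to 0.540, 2.50 and 7.25 FPKM and stood below hexamerin names in flies 1 and 2. The most abundant vitellogenin name stood below the longer hexamerin in fly 2, at 3.21 and 3.53 FPKM. The exact sign-flip permutation p, two-sided, was 0.25, the smallest that 3 flies allow, and 0.75 after Benjamini-Hochberg adjustment over 3 pairs of names. Vitellogenin stood at 6.89, 0.488 and 0.441 times apolipophorins, with an exact permutation p of 1, also 1 adjusted. Hexamerin stood at 3.01, 0.279 and 0.0768 times apolipophorins, with an exact permutation p of 0.5 and 0.75 adjusted. Fly 1 alone thus had the sums of both names above apolipophorins, although its large vitellogenins, at 0.540 FPKM, were below apolipophorins, and neither ratio to apolipophorins held against the spread between flies.

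A list searched for lipoprotein receptors and assembly gave 8 names, 7 of receptors and 1 of an adapter, and none of an assembly gene. Of these, 7 were highest in fly 3, against 66.5% of all unigenes, and 1 was variable. That was low density lipoprotein receptor adapter protein 1-like (TRINITY_DN1891_c0_g1_i5), named for an adapter of receptor uptake, at 2.98, 15.5 and 348 FPKM in flies 1, 2 and 3. Sortilin-related receptor-like (TRINITY_DN1442_c0_g1_i20) was at 38.9 ± 3.10 FPKM and low-density lipoprotein receptor-related protein 6 (TRINITY_DN3112_c0_g1_i4), a Wnt coreceptor, at 12.9 ± 2.19 (SD, n = 3). The putative vitellogenin receptor (TRINITY_DN16720_c2_g1_i2), named for the receptor that takes yolk into the egg, was at 0.333, 0.393 and 0.362 FPKM. It was low in all 3 flies, fly 3 included, where 5 of the 6 vitellogenin names had their highest value.

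Eggshell and yolk names were few. No unigene was named yolk protein or vitelline membrane protein. Vitellin-degrading protease (TRINITY_DN5537_c0_g1_i1), whose name comes from an enzyme that cuts yolk in the silkworm egg, was at 354, 251 and 241 FPKM in flies 1, 2 and 3. Chorion protein S38-like (TRINITY_DN14576_c0_g1_i4), named for an eggshell protein of follicle cells, had 158 reads in fly 1 and 0 in flies 2 and 3, or 3.28, 0 and 0 FPKM. Both had their highest value in fly 1.

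A search by words for hormonal control of yolk synthesis gave 28 names, of which 23 were highest in fly 3, against 66.5% of all unigenes. Some were taken in by a word alone, such as 4E-binding protein Mextli, ecdysteroid-phosphate phosphatase, transcription factor GATA-6-like and an ecdysteroid-regulated 16 kDa protein-like. Their part in this control was not tested. Of the 17 names of the list averaging 5 FPKM or more, 3 were variable, against 9.42%. The most abundant names of the list were a juvenile hormone esterase (TRINITY_DN380_c0_g1_i5) at 227 ± 33.4 FPKM and Krueppel homolog 2 (TRINITY_DN7498_c0_g1_i18) at 113 ± 15.1 (SD, n = 3). The esterase, with 46.7% identity to its hit, is named for an enzyme that breaks down juvenile hormone. Krueppel homolog 2 was taken in by the words Krueppel homolog alone, and a part in hormone control was not tested. Krueppel homolog 1 names were far lower, with TRINITY_DN2633_c0_g1_i4 at 0.663, 3.48 and 4.14 FPKM and TRINITY_DN3328_c0_g2_i6 at 1.57, 0.650 and 1.89. An eIF4E-binding protein (TRINITY_DN17843_c0_g1_i9), a brake on translation under TOR signalling, was at 39.2, 26.1 and 105 FPKM. The variable names, given here since they are 3, were an ecdysteroid-regulated 16 kDa protein-like (TRINITY_DN794_c0_g1_i1) at 39.9, 4.41 and 106 FPKM, another juvenile hormone esterase (TRINITY_DN2859_c0_g1_i4) at 0.258, 2.68 and 32.4, and a juvenile hormone acid O-methyltransferase-like (TRINITY_DN2627_c0_g1_i3). The last, named for an enzyme that makes juvenile hormone, had 0, 0 and 474 reads in flies 1, 2 and 3, or 16.6 FPKM in fly 3. The ecdysone receptor (TRINITY_DN17335_c0_g2_i17), through which the moulting hormone acts on yolk genes in mosquitoes, was at 2.96, 2.64 and 4.00 FPKM.

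Lipid storage gave 4 names, all above an FPKM of 1 in every fly. Lipid storage droplets surface-binding protein 1 (TRINITY_DN10784_c0_g1_i10), a perilipin that coats lipid droplets, was variable at 10.9, 14.2 and 123 FPKM in flies 1, 2 and 3. Its relative, protein 2 of that name (TRINITY_DN1210_c0_g1_i10), was at 19.8, 21.2 and 59.5 FPKM. Hormone-sensitive lipase (TRINITY_DN4584_c0_g1_i6), which releases stored fat, was at 8.07, 6.86 and 15.7. These 3 had their highest value in fly 3, as 66.5% of all unigenes did. Diacylglycerol O-acyltransferase 1 (TRINITY_DN14936_c0_g1_i66), which makes stored fat, was at 8.40, 9.19 and 8.55 FPKM, with little difference between flies.

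The hemocyanin superfamily, to which hexamerins belong, was searched together with storage proteins and gave 12 names. Of them 4 are phenoloxidase-activating factors, which are proteases and not relatives of hexamerin, and 3 of these were the 3 variable names, led by phenoloxidase-activating factor 2-like (TRINITY_DN10611_c0_g1_i10) at 5.86, 10.5 and 55.4 FPKM. The others of this kind were TRINITY_DN1263_c0_g1_i4 at 1.81, 1.73 and 21.8 FPKM and TRINITY_DN5227_c0_g1_i5 at 1.39, 1.42 and 14.4. The remaining 8 names were phenoloxidases, which start melanin synthesis, and a short unigene with a hit titled only Hemocyanin, N-terminal. They were set apart after the values were seen and summed to 7.52, 19.4 and 20.6 FPKM in flies 1, 2 and 3. Some share the number DN12757 or DN42958 in their identifiers, and whether these are parts of 1 gene was not tested. Fly 1 was lowest in 7 of these 8, against 26.9% of all unigenes, and flies 2 and 3 each held the highest value of 4. Of the hexamerins, the longer had fly 1 lowest and the shorter had fly 1 highest. No unigene was named arylphorin or larval serum protein.

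**Figure D4:**
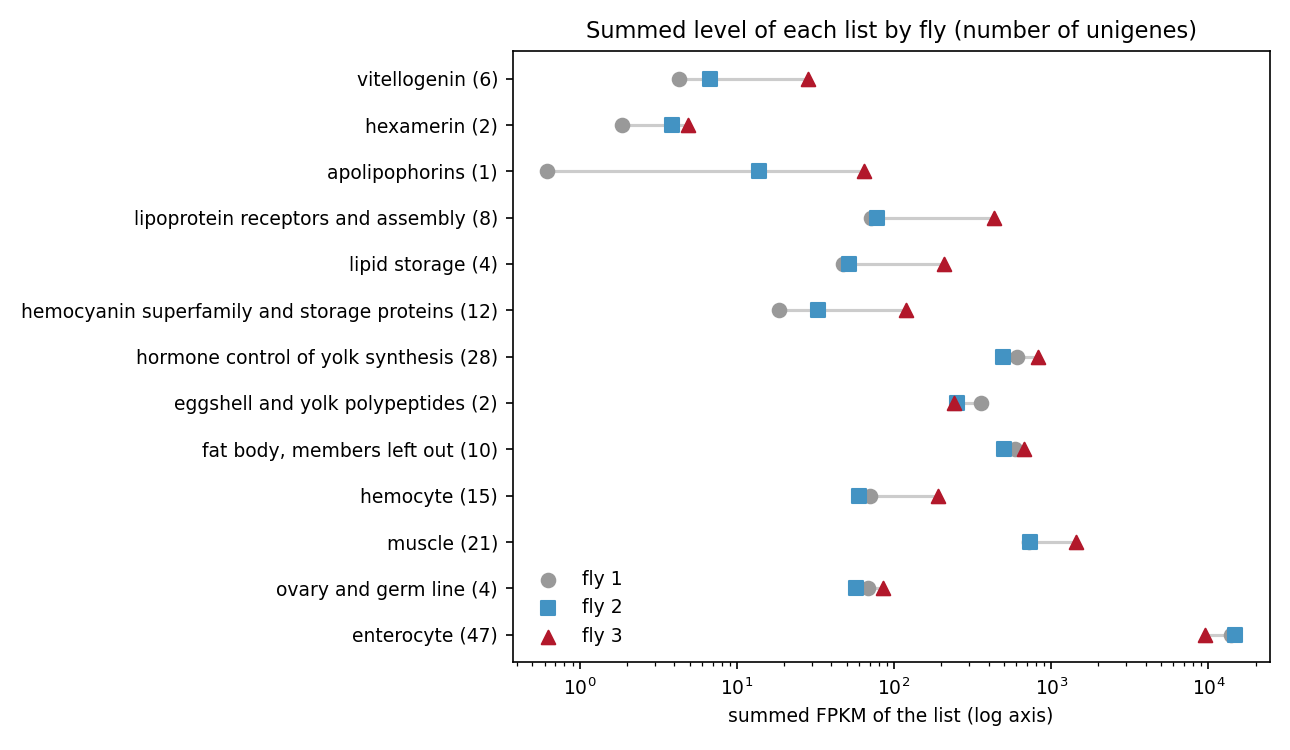
Summed FPKM of each list on a log x axis, with 1 point per fly and the number of unigenes in brackets. Fly 3 is highest for the 3 names followed here and for every other list shown except the eggshell and enterocyte lists. In those it is lowest, enterocyte names summing to 13858, 14851 and 9588 FPKM in flies 1, 2 and 3. The eggshell sum is almost wholly that of vitellin-degrading protease, at 354, 251 and 241 FPKM.

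Lists of other tissues differed between the flies too. The enterocyte list, 47 names found by words for digestive enzymes and peritrophins, summed to 13858, 14851 and 9588 FPKM in flies 1, 2 and 3 and had no member at 0. It also took in some names that are not digestive enzymes, such as cytosolic carboxypeptidase-like protein 5, carboxypeptidase D and carboxypeptidase N subunit 2. Fly 1 was highest in 12 of the 47, fly 2 in 13 and fly 3 in 22, against 21.3%, 12.3% and 66.5% of all unigenes. The median difference of fly 3 from the mean of the other flies was 0.11 in log2(FPKM + 1), against 0.43 over all unigenes. This median is positive, so the lower sum of fly 3 came from abundant names, though it is below that of all unigenes. The 3 most abundant names of this list were trypsin Blo t 3-like (TRINITY_DN420_c0_g1_i4) with 4136 ± 2035, maltase A3 (TRINITY_DN5820_c0_g1_i5) at 2152 ± 574 and carboxypeptidase B-like (TRINITY_DN818_c0_g1_i9) at 1910 ± 1164 FPKM (SD, n = 3). The trypsin and the carboxypeptidase were lowest in fly 3, at 2090 and 657 FPKM. Maltase A3 was instead highest in fly 3, at 2694 FPKM. Fat body names besides the members were 10, of which 2 were false matches, and the other 8, transferrins, takeout names and glycogen phosphorylase, summed to 584, 498 and 669 FPKM, with 6 of 8 highest in fly 3, near the share of all unigenes, 66.5%. Most of that sum came from transferrin-like (TRINITY_DN1150_c0_g1_i4) at 271 ± 43.4 and transferrin (TRINITY_DN1249_c0_g1_i15) at 176 ± 31.1 FPKM (SD, n = 3), which are iron carriers, and from glycogen phosphorylase (TRINITY_DN6_c0_g1_i4) at 94.6 ± 17.4 FPKM (SD, n = 3). Over these 8 fat body names the median difference of fly 3 from the mean of the other flies was 0.82 in log2(FPKM + 1), against 0.43 over all unigenes. No adipokinetic hormone receptor name was found. A takeout name (TRINITY_DN9805_c0_g1_i2), chosen after its values were seen, was at 68.8, 0.632 and 1.86 FPKM, highest in fly 1 like 2 of the members. The takeout names TRINITY_DN13607_c0_g1_i4, at 5.17, 2.81 and 10.4 FPKM, and TRINITY_DN18156_c0_g1_i12, at 0.761, 0.0757 and 3.53, were instead highest in fly 3.

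Hemocyte names, 15 in all and including the phenoloxidase names above, summed to 70.0, 59.6 and 190 FPKM in flies 1, 2 and 3, with 10 highest in fly 3, a share close to that of all unigenes, 66.5%. The 4 phenoloxidase-activating factors gave 11.1, 13.6 and 97.7 FPKM of these sums. Over the 15 hemocyte names the median difference of fly 3 from the mean of the other flies was 0.86 in log2(FPKM + 1), against 0.43 over all unigenes. Croquemort-like (TRINITY_DN4581_c0_g1_i37), a scavenger receptor, led them at 49.5, 25.0 and 64.6. Muscle names, 21 in all, summed to 725, 733 and 1446 FPKM, with 17 highest in fly 3, against 66.5% of all unigenes, and muscle LIM protein Mlp84B-like (TRINITY_DN39_c0_g1_i1) at 248, 233 and 545. Troponin C (TRINITY_DN12232_c0_g1_i1) was at 92.2, 111 and 229 FPKM and troponin T (TRINITY_DN1863_c0_g1_i13) at 80.9, 83.0 and 195. The muscle list also took in myosins not named for muscle. Non-muscle myosin heavy chain (TRINITY_DN159_c0_g1_i11) was at 51.1, 51.8 and 57.8 FPKM, highest in fly 3. Unconventional myosin heavy chain 6 (TRINITY_DN183_c0_g1_i8), at 15.3, 6.93 and 6.79, and the myosin heavy chain 95F names were not highest in fly 3. Ovary and germ line names were 4, summing to 68.3, 56.9 and 84.9 FPKM, and held piwib (TRINITY_DN5557_c0_g1_i38) at 48.9 ± 11.5, bicaudal D (TRINITY_DN7143_c0_g1_i6) at 11.0 ± 1.25 and piwia (TRINITY_DN8513_c0_g1_i3) at 9.09 ± 2.45 (SD, n = 3), beside the chorion name. No name of vasa, nanos or oskar was found. The part of fat body, hemocytes, muscle or ovary carried with a midgut in the levels of the 9 members was not tested. In such bulk samples, a smaller number of cells of a type and less RNA per cell cannot be told apart.

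The unigenes with the profile over the 3 flies most like each name were found among 5193 others with a hit and a mean FPKM of at least 5, by the root mean square difference of centred log2(FPKM + 1). Unigenes whose hit was named only uncharacterized or hypothetical were counted but not named. With 3 points this comparison describes the libraries and says nothing of shared control. For apolipophorins the closest with a named hit was serine protease 14 (TRINITY_DN10536_c0_g2_i2, difference 0.066) at 0, 7.58 and 35.0 FPKM in flies 1, 2 and 3. Next came apolipoprotein D-like (TRINITY_DN256_c0_g1_i6, 0.13) at 1.34, 16.1 and 85.8. Bombyxin B-1-like (TRINITY_DN3632_c0_g1_i1, 0.14), named for an insulin-like hormone of the silkworm, followed at 0.155, 7.32 and 42.6. Another 2 unigenes, not named, were closer than all of these. For summed vitellogenin the closest named unigenes were lachesin (TRINITY_DN2395_c0_g1_i15, 0.091), a purine synthesis enzyme (TRINITY_DN4810_c0_g1_i8, 0.092) and general odorant-binding protein 99a-like (TRINITY_DN1272_c0_g1_i1, 0.098). Here 1 unigene, not named, was closer than the last of these. For summed hexamerin the closest were phosphotriesterase-related protein-like (TRINITY_DN7590_c0_g1_i4, 0.025), ribose-phosphate pyrophosphokinase 1 (TRINITY_DN2249_c0_g1_i28, 0.028) and laminin subunit alpha (TRINITY_DN1947_c0_g1_i11, 0.029).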

How the data were processed

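RNA sequencing libraries from 3 midguts were analysed, and groups were taken from the labels. Per the file headers, the authors deposited an FPKM value per unigene and fly, with unigene length, best protein hit, aligned residues and percent identity of that hit. The column numbered 4 belongs to fly 3, per the labels. Assembler version, aligner, counting tool and protein database are not named in the sources used here. FPKM times length summed to 1e+09 in each fly. Division by its smallest value gave whole numbers, within 0.001, for 97.1% to 97.3% of unigenes, and these are the recovered reads, with a fragment of 2 reads and a floor of 3 fragments (6 reads) per fly. Reads shared between similar transcripts may be divided between unigenes.

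Levels were set on log2(FPKM + 1), which understates differences of low unigenes. No count model was used. Ratios between names were taken within each fly and tested by exact sign-flip permutation (scipy 1.17.1, Python 3.11.15). The 3 libraries are called separate flies by the labels, and the spread measures these samples alone. Name patterns matched 5 pathway lists and 5 lists of cell types. The text names the 9 members, the 3 most abundant unigenes of each list and the 3 most alike in profile with a named hit. It also names those stated as chosen later. Some others of the lists are named outside this rule, such as the ecdysone receptor, diacylglycerol O-acyltransferase 1 and the putative vitellogenin receptor. Members and lists were chosen with earlier results of these data known. Alternatives were median-of-ratios scaling, other pseudocounts and filters, shares of reads, and leaving out each fly.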

Additional observations from a re-analysis of the deposited data

How the results depend on the processing

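With 6 reads or fewer behind 6 of the 27 values, depth limits the low members. The number of members at an FPKM of 1 in every fly was 1, and between 1 and 4 when 1 fly was left out, with 4 reached without fly 1. The number at that level in any fly was 8, and between 5 and 8 when 1 fly was left out, with 5 reached without fly 3. With detection at 0.5 FPKM, 2 members were detected in every fly. The number of variable members was 1, and it was 2 with a pseudocount of 0.1, 4 with no filter on low values and 4 among members averaging 1 FPKM or more. The number highest in fly 3 was 7, and 6 with median-of-ratios scaling. It could not be counted without fly 3. The hexamerin share of all FPKM was 0.000556%, and 0.000813% without the 10 most abundant unigenes. Shares per library and ratios within a fly do not change with scaling, by construction. The mean log2 ratio of vitellogenin to apolipophorins, 0.19, changed sign. It was -0.40 as reads, -0.76 with the most abundant member of each name, and between -1.11 and 0.87 when 1 fly was left out, with -1.11 reached without fly 1. The cause was not tested. The mean log2 ratios of vitellogenin to hexamerin and of hexamerin to apolipophorins kept their sign in the alternatives run, but hexamerin to apolipophorins, -1.32 with all flies, was -2.77 without fly 1 and -0.13 without fly 3. The shares of all FPKM rested on fly 3, since without it vitellogenin held 0.000868% against 0.00205% with all flies, and apolipophorins 0.00113% against 0.00408%. As a share of reads, apolipophorins held 0.00847%. No paired analysis was possible because the labels give 1 group. The between-fly SD of single members moved by over 1.5 times in 7 of 9 members with a pseudocount of 0.1, in 5 without fly 3, in 4 without fly 1 and in none without fly 2.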
